A study of Mus musculus with 9 samples.

Results

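To describe chromatin at the receptors that set the tone of oviductal muscle, peaks of H3K27ac and H3K4me1 were collected at 9 genes out of 21866 protein-coding genes of the mouse annotation. The genes were Oxtr, Adra1a, Adra1b, Chrm2, Chrm3, Ednra, Ednrb, Agtr1a and Htr2a, chosen by name as receptors that control smooth muscle contraction. Every peak overlapping a gene body or the 50 kb on either side of it was taken, and was called promoter when it lay within 1 kb of a start of a protein-coding transcript, intragenic when it lay in the rest of the gene, and flanking otherwise. The cells were primary oviductal muscle cells taken on day 2 of pregnancy from WT females of 8 to 12 weeks that had been mated with stud males. There were 3 H3K27ac, 3 H3K4me1 and 3 IgG libraries of 50000 cells each, with a single genotype, day and cell preparation, so the comparison available was between the 2 marks. Cells came from a digest of the whole oviduct that was filtered and plated for hours without a sort. The sources used here do not say how many animals a library came from, so the spread given below is between libraries, which may be technical.

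In ChIC-Seq an antibody carries protein A fused to MNase to its target in fixed cells, and the fragments that the nuclease releases are sequenced. H3K27ac is found at active promoters and active enhancers, and H3K4me1 is found around enhancers whether or not they are active. All 9 genes encode G protein-coupled receptors. The oxytocin receptor (Oxtr), the alpha-1 adrenergic receptors (Adra1a, Adra1b), the muscarinic M3 receptor (Chrm3), the endothelin receptors (Ednra, Ednrb), the type 1a angiotensin II receptor (Agtr1a) and the serotonin 2A receptor (Htr2a) couple mainly to Gq, which raises cytosolic calcium through phospholipase C and IP3. The muscarinic M2 receptor (Chrm2) couples to Gi and lowers cAMP. A histone mark is not a measure of transcript, and no expression was measured in these samples.

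Peaks were weak. The 6 replicate lists held 617 peaks at the 9 genes, with a fold enrichment over local background of 1.34 to 2.55. Of these, 53 passed 1.3 on the −log10 p-value scale (the mean over the peak, where the lowest value kept by the caller was near 1). Across the genome, 11.1% (H3K27ac replicate 1) to 19.0% (H3K4me1 replicate 3) of the peaks in a replicate list passed. H3K27ac libraries held 40551842 to 42040809 fragments, and H3K4me1 replicates 1, 2 and 3 held 41891318, 78891920 and 64063996. The IgG libraries held 3110985 to 3713369. Median peak width was 593 to 624 bp in the H3K27ac replicate lists and 674 to 837 bp in those of H3K4me1. How depth bears on the differences between the marks was not tested. The IgG libraries were shared between calls. H3K27ac replicate 1 was called against IgG 1, H3K27ac replicate 2 and H3K4me1 replicates 1 and 2 against IgG 2, and the replicate 3 lists of both marks against IgG 3.

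Sequences are shown for the 3 promoters that had a peak in all 3 replicates of a mark, since these carried the most repeatable promoter calls of the group. They are the bases before the RefSeq start (GRCm38.p6), ending before any annotated exon, 5′ to 3′ in the direction of transcription. Capitals mark a match to a searched motif. The Ednra promoter is chr8:77724465-77724702 on the minus strand, the Ednrb promoter chr14:103843702-103843951 on the minus strand, and the Htr2a promoter chr14:74640624-74640839 on the plus strand. The Ednrb bases lie between the upstream and the downstream first exon of that gene.
Ednra promoter: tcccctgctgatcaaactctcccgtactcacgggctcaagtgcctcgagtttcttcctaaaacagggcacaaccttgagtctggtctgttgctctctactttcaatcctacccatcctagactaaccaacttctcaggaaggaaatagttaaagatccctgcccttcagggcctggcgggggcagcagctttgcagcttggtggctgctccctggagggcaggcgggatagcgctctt
Ednrb promoter: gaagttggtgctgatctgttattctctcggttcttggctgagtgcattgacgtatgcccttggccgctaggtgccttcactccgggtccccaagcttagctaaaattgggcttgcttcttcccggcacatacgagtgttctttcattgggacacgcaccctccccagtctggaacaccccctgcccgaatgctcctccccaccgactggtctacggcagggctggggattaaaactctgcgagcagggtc
Htr2a promoter: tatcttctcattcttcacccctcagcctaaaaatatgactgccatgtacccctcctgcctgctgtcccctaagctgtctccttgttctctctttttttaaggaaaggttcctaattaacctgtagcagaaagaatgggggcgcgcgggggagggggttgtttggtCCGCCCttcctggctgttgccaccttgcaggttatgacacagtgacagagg
The Ednra bases were covered in full by H3K27ac replicates 1 and 3 and H3K4me1 replicate 3, and by no other replicate list. The Ednrb bases were covered in full by replicate 3 of each mark, and H3K27ac replicate 2 covered 46 of the 250. Of the 216 Htr2a bases, H3K27ac replicate 1 covered all and no other replicate list any, because the peaks of H3K27ac replicates 2 and 3 began 206 and 502 bp downstream of the start.

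Both strands of these promoters were searched for 5 motifs, namely the CArG box bound by serum response factor, the AP-1 site TGANTCA, the TEAD site GGAATG, the GC box GGGCGG and the TATA box TATAAA. In the whole RefSeq promoter windows (250 bases before to 50 after the start), a GC box was present at Oxtr, Chrm2, Htr2a and the inner start of Adra1b, and an AP-1 match at the outer start of Adra1b. The other motifs had no match in the windows of the 7 members with an entry. Over all 32851 promoter windows, 35.7% held a GC box, 7.81% an AP-1 match, 14.7% a TEAD match, 13.6% a TATA box and 1.63% a CArG box. The GC box of Htr2a began 85 bases before the start. CpG content ranged widely, from 3 CpGs in the 300 bases at the outer start of Adra1b to 28 at its inner start, with 6 at Htr2a, 8 at Ednra, 15 at Ednrb and 20 at Oxtr, against a median of 7 over all windows.

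Promoter peaks were scattered over the lists. H3K27ac was present in at least 2 of 3 replicates at 4 of the 9 promoters (Adra1b, Ednra, Ednrb, Htr2a), where 53.9% of all protein-coding genes met that rule. H3K4me1 was present in at least 2 of 3 at 6 of the 9 (Oxtr, Adra1a, Chrm3, Ednra, Ednrb, Agtr1a), where 43.6% of all genes did. Only Ednra and Ednrb had both marks by this rule, against 39.1% of all genes. None of the 9 had a promoter peak in all 6 lists, as 24.3% of all genes had, and none lacked one in all 6, as 32.9% of genes did. All 3 H3K27ac replicates marked Ednra and Htr2a (45.9% of all genes), and all 3 H3K4me1 replicates marked Ednrb (27.9%). The pooled lists, called on the 3 libraries of a mark together, marked 6 promoters for H3K27ac and 5 for H3K4me1, where 56.2% of all genes were marked in each. The counts rested on single libraries and weak peaks. Without H3K27ac replicate 2 the H3K27ac count was 2, and without H3K4me1 replicate 1 or 2 the H3K4me1 count was 2 or 1, with both remaining lists then required. With peaks filtered at 1.3 on the −log10 p-value scale the counts were 2 and 0.

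At 3 of the 9 promoters the lists with a peak were exactly those called against a single IgG library, and at the other 6 they were not. Adra1a and Agtr1a had a promoter peak in H3K27ac replicate 2 and in H3K4me1 replicates 1 and 2, which are exactly the 3 lists called against IgG 2. Chrm2 had one in replicate 3 of each mark, exactly the 2 lists called against IgG 3. Such a pattern was present at 1.68% of all genes and at these 3 of the 9. Oxtr and Chrm3 had H3K4me1 in replicates 1 and 2 but not in replicate 3, as did Adra1a and Agtr1a, which made 4 of 9 where 8.80% of all genes did so. When an H3K4me1 peak was required under both IgG libraries used for that mark, the count dropped from 6 to 2, Ednra and Ednrb, where 34.8% of all genes passed. The part of the IgG libraries in these calls was not tested.

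**Figure D1:**
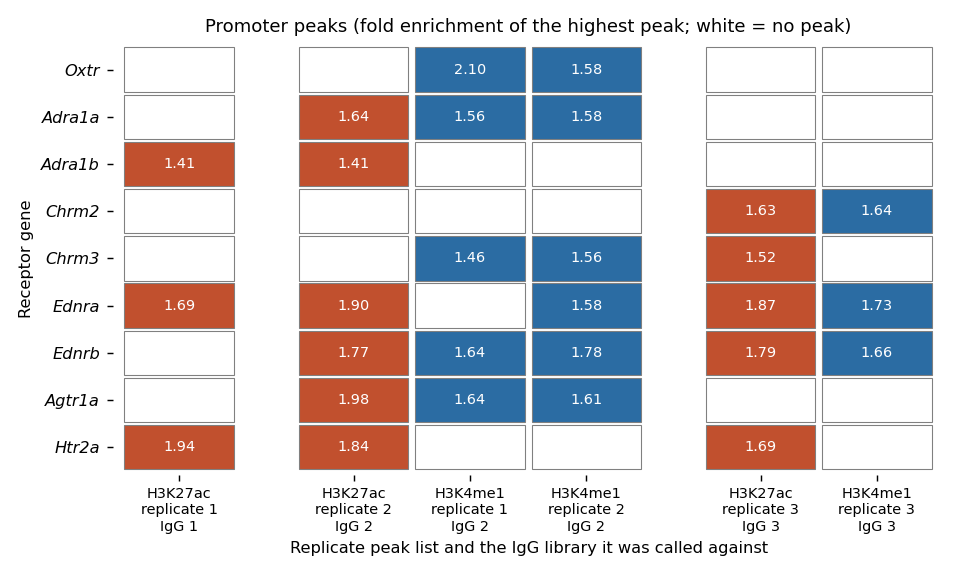
Promoter peaks of the 9 receptor genes (rows) in the 6 replicate lists (columns, grouped by the IgG library of the call). A filled cell holds the fold enrichment of the highest promoter peak, orange for H3K27ac and blue for H3K4me1, and a white cell means no peak. The Adra1a and Agtr1a cells are filled only in the IgG 2 columns and the Chrm2 cells only in the IgG 3 columns.

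With flanks of 50 kb, mean coverage of the windows was highest at Ednra, Ednrb and Htr2a for both marks. For H3K4me1 the share of each window under peaks was 17.6% ± 1.95 (SD, n = 3) at Ednra, 13.3% ± 1.67 at Ednrb and 9.19% ± 3.58 at Htr2a, and from 3.47% ± 1.63 at Adra1b down to 1.05% ± 0.493 at Chrm2 for the other 6. The lists of Ednra did not overlap those of Ednrb, and those of Htr2a did not overlap those of Adra1b. All other neighbours in that order overlapped. For H3K27ac the order was Ednrb at 11.5% ± 3.05, Htr2a at 10.3% ± 3.46 and Ednra at 6.95% ± 0.798, followed by Adra1b at 2.90% ± 0.448, and Adra1a was lowest at 1.11% ± 0.341. Of the neighbours in this second order, only Ednra and Adra1b had lists that did not overlap. These gaps depended on the flank and the filter. For H3K4me1 the lists of Ednra and Ednrb overlapped with flanks of 20 kb and of 100 kb, as did those of Htr2a and Adra1b, whose means at 100 kb were 7.53% and 7.30%. For H3K27ac the lists of Ednra and Adra1b overlapped with flanks of 100 kb. With peaks filtered at 1.3 on the −log10 p-value scale, the H3K27ac mean at Ednrb was 0.444%, below 0.804% at Adra1b. The median member window was covered to 2.67% by H3K27ac and 2.89% by H3K4me1, against medians of 4.97% and 4.45% over all genes.

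**Figure D2:**
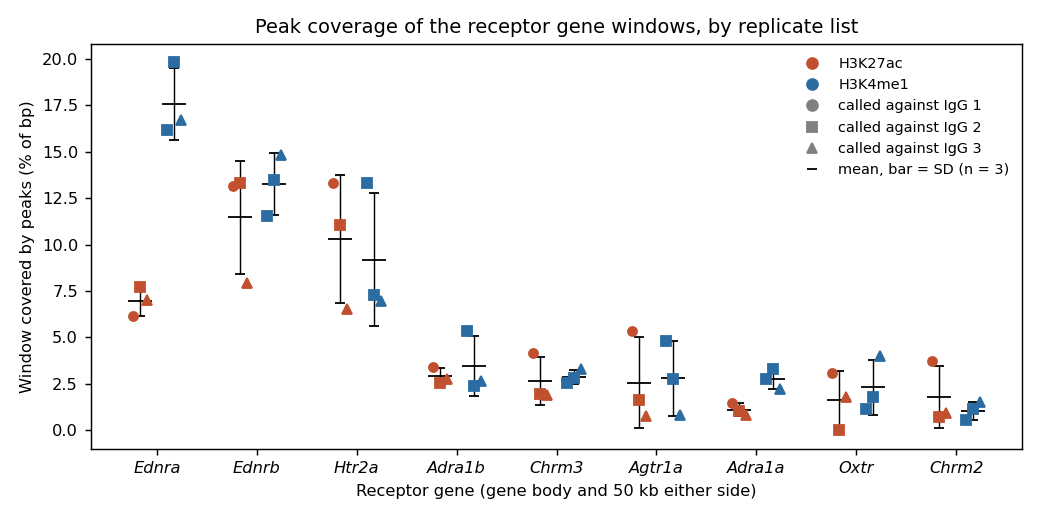
Share of each gene window (gene body and 50 kb either side, y axis in percent of bp) under peaks, for each receptor gene. Each point is a replicate list, coloured by mark and shaped by the IgG library of the call, and the bars are mean and SD of 3 lists. The 3 H3K4me1 points of Ednra sit between 16.2% and 19.8%, above its H3K27ac points at 6.13% to 7.73%, while the marks overlap at Ednrb and Htr2a.

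Ednra (ENSMUSG00000031616.7, chr8:77663031-77724464, minus strand, GRCm38) encodes the endothelin A receptor, the main contractile receptor for endothelin-1 in smooth muscle. Its window was covered to 6.13%, 7.73% and 6.99% in H3K27ac replicates 1, 2 and 3, and to 16.2%, 19.8% and 16.7% in H3K4me1 replicates 1, 2 and 3. Every H3K4me1 list was above every H3K27ac list, a difference of −10.6 percentage points for H3K27ac minus H3K4me1 (exact permutation test, two-sided, p = 0.1, the smallest that 3 against 3 allows). With peaks filtered at 1.3 on the −log10 p-value scale the difference was −3.39, from 1.01% and 4.41%. After Benjamini-Hochberg adjustment over all genes p was 0.317, which is also the smallest reachable. Among all genes 13.2% had all H3K27ac lists below all H3K4me1 lists in the window, and of the 9 members Ednra and Adra1a did. In the opposite direction, with all H3K27ac lists above, 18.4% of all genes did so in the window, 3.97% inside the gene and 17.6% in the flanks, and no member did. At Ednra the order was the same in intragenic sequence, in the flanks and in the window within each IgG library, but not in the promoter, which was covered to 100%, 9.80% and 92.0% for H3K27ac against 0%, 15.7% and 95.1% for H3K4me1 (p = 0.6, exact permutation). Intragenic coverage was 6.59%, 13.8% and 10.5% for H3K27ac against 20.3%, 27.6% and 24.8% for H3K4me1 (background 12.7%), and flank coverage 3.96%, 3.98% and 3.13% against 14.0%, 15.2% and 10.2% (background 10.3%). Among lists called against IgG 2 the difference in the window was −10.3 percentage points, and among those called against IgG 3 it was −9.75. H3K4me1 coverage of this window was above that of 93.6% of all genes, and H3K27ac coverage above 61.8%.

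Peaks at the Ednra start were broad and not equally placed. H3K27ac replicates 1 and 3 had peaks of 3034 and 2760 bp over the start, with a fold enrichment of 1.69 and 1.87. The peak of H3K27ac replicate 2 (1195 bp, 1.90-fold) stopped 805 bp short of the start, inside the gene, and a peak of H3K4me1 replicate 2 stopped at the same base. H3K4me1 replicate 3 covered 95.1% of the promoter window, and H3K4me1 replicate 1 covered none of it. An antisense noncoding transcript, 4933431K23Rik, spans the whole gene.

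Away from promoters, regions with both marks were counted in the windows of the 9 receptor genes. Regions were taken where at least 2 of 3 replicates of a mark covered the same base, and were called double-marked where H3K27ac and H3K4me1 regions overlapped by at least 1 bp outside the promoter of every protein-coding gene. The 9 windows held 34 such regions among 47 H3K27ac regions, and 33 of the 34 had H3K4me1 under both IgG libraries. Their number was 21, 13 and 14 without H3K27ac replicates 1, 2 and 3, with both remaining lists then required, and 1 with peaks filtered at 1.3 on the −log10 p-value scale. Counted as H3K27ac regions, Ednra held 12, Chrm3 8, Ednrb 7 and Htr2a 4. Counted as the H3K4me1 regions they overlap, Ednra and Chrm3 held 8 each, Ednrb 7 and Htr2a 3, since an H3K4me1 region at Ednra can hold several H3K27ac regions. Oxtr, Adra1a and Adra1b held 1 each, and Chrm2 and Agtr1a none. In H3K27ac regions per 100 kb of window this was 7.43 at Ednra, above 96.5% of all genes, 5.39 at Ednrb (above 92.6%), 2.37 at Htr2a and 1.37 at Chrm3. Windows with 1 region stood at 0.860 (Oxtr), 0.441 (Adra1b) and 0.424 (Adra1a), above 52.5%, 44.4% and 44.3% of all genes. The median over members was 0.860 and over all genes 0.796. All 12 H3K27ac regions away from promoters at Ednra carried H3K4me1, 10 in introns, 1 downstream and 1 beginning 1860 bp upstream. Of the intronic ones, 5 began between 8306 and 13539 bp into the gene.

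**Figure D3:**
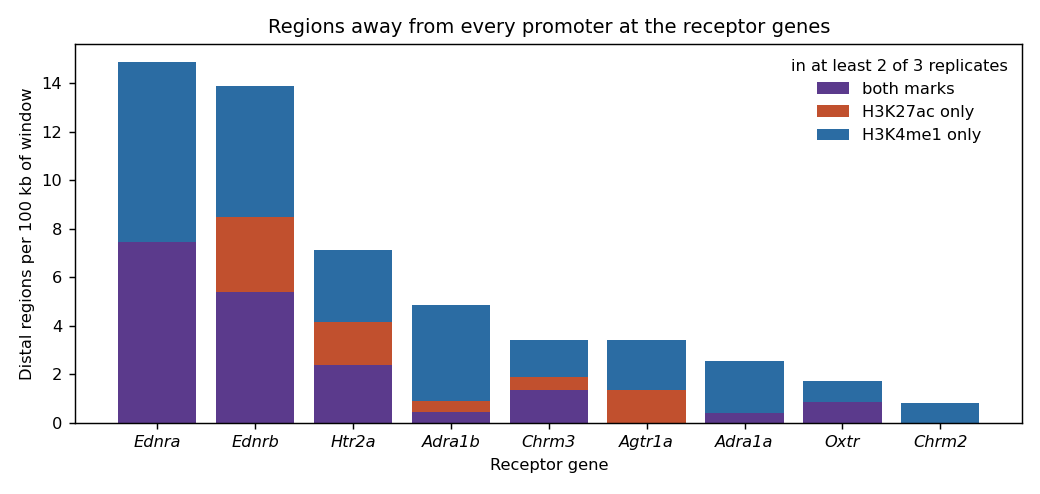
Regions outside all protein-coding promoters that were covered in at least 2 of 3 replicates, per 100 kb of window (y axis), for each receptor gene. Bars stack regions with both marks, H3K27ac only and H3K4me1 only, so the bar of Ednra starts with 7.43 double-marked regions per 100 kb and those of Agtr1a and Chrm2 with none.

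Ednrb (ENSMUSG00000022122.15, chr14:103814625-103844402, minus strand) encodes the endothelin B receptor, which binds the endothelins with like affinity and also acts in endothelium, melanocytes and enteric neural cells. Its window was covered to 13.2%, 13.3% and 7.94% by H3K27ac and to 11.5%, 13.5% and 14.8% by H3K4me1, and the marks overlapped (p = 0.5, exact permutation). Inside the gene coverage was higher still, at 23.4%, 35.5% and 9.92% for H3K27ac and 35.6%, 38.7% and 34.8% for H3K4me1. H3K27ac replicate 3 was the lowest list in the gene body yet had the widest promoter peak of that mark, 2574 bp at 1.79-fold. H3K27ac replicate 1 had no promoter peak at Ednrb. H3K4me1 replicate 3 had a single peak of 8279 bp running from the start into the gene. One of the 7 double-marked regions overlapped coding exon sequence and had H3K4me1 under IgG 2 only. A pair of H3K27ac regions upstream, 20940 and 39945 bp from the nearest start, were found in all 3 H3K27ac lists without an H3K4me1 region.

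Htr2a (ENSMUSG00000034997.5, chr14:74640840-74709494, plus strand) encodes the serotonin 2A receptor, which contracts vascular and visceral smooth muscle. Its promoter window was covered to 65.9%, 39.7% and 24.9% in H3K27ac replicates 1, 2 and 3, and to 0% in every H3K4me1 replicate. The groups did not overlap (difference 43.5 percentage points, p = 0.1, exact permutation), as at 26.2% of all genes in this direction, and no other member did so, while 1.71% of all genes and no member had all H3K27ac lists below. The separation was lost with peaks filtered at 1.3 on the −log10 p-value scale and with promoters of 250 bp (p = 0.4 for each, exact permutation), where the differences were 35.2 and 36.3 percentage points. The difference was 39.7 percentage points among lists called against IgG 2 and 24.9 among those called against IgG 3. The 3 peaks were 1836, 2546 and 1871 bp wide with a fold enrichment of 1.94, 1.84 and 1.69. H3K4me1 peaks are listed further in, in 1 replicate and in the pooled list. They overlap the region of 2167 bp that at least 2 H3K27ac replicates covered from 206 bp past the start. Over the window as a whole the marks overlapped, with 13.3%, 11.1% and 6.52% for H3K27ac against 13.3%, 7.30% and 6.95% for H3K4me1 (p = 0.9, exact permutation, difference 1.11 percentage points).

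Part of the coverage near Htr2a belongs to a neighbour. The promoter of Esd, the esterase D gene, begins inside the downstream flank and carried peaks in all 6 lists over 1579 bp, the longest such stretch in the 9 windows, with 1 peak of 2.55-fold in H3K27ac replicate 3 that was the highest at any member.

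Stretches covered by all 6 replicate lists outside promoters were short. They were found at Htr2a (411 bp), Chrm3 (227 and 89 bp), Adra1b (223 bp) and Ednra (148 and 4 bp), and at no other member. With promoters included, such stretches took a median of 0.0945% of the window over all genes and 0% over the members. In this share Chrm3, Ednra and Adra1b were above 48.2%, 50.0% and 50.2% of all genes. Htr2a, with the Esd promoter in its window, was above 80.9%. Since every library contributed to these stretches, 300 bases centred on the longest stretch of each gene are shown, on the plus strand of GRCm38. For Htr2a the stretch over the Esd promoter was passed over for the intronic one, a choice made after the values were seen. The windows are chr11:43920355-43920654 for Adra1b, chr13:9882642-9882941 for Chrm3, chr8:77658660-77658959 for Ednra and chr14:74698366-74698665 for Htr2a.
Adra1b upstream region: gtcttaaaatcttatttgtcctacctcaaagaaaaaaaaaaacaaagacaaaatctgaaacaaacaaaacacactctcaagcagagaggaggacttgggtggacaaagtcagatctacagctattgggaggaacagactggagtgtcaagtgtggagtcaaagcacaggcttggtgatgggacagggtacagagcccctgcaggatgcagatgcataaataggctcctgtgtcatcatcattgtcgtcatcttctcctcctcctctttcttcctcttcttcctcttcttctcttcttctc
Chrm3 intronic region: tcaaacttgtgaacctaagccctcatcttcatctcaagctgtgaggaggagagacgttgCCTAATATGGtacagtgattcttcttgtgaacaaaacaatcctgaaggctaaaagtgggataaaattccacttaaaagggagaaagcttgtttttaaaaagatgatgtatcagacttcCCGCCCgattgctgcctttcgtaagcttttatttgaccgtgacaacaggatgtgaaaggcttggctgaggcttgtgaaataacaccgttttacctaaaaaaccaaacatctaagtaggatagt
Ednra downstream region: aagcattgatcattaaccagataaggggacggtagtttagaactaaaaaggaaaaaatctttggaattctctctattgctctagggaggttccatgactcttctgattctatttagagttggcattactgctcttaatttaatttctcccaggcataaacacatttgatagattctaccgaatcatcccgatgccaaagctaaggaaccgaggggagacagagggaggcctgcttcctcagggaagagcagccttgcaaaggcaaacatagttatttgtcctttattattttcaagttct
Htr2a intronic region: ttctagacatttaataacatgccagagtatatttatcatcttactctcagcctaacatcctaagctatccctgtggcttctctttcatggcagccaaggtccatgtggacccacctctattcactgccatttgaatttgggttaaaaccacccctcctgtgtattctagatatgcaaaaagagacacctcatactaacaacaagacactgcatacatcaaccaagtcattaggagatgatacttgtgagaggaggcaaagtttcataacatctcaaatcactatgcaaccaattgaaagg
Capitals again mark motif matches. The Chrm3 region held a CArG box, present in 1.91% of the 15521 windows of this length centred on six-list stretches away from promoters across the genome, and a GC box, present in 3.44%. The other 3 regions held none of the 5 motifs, of which TATAAA was the most common across the genome, in 26.3% of such windows. A match is a string of letters and was not tested for binding.

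The Adra1b region begins 19183 bp upstream of the nearest start, outside any annotated gene, and its peaks had a fold enrichment of 1.97, 1.73 and 1.89 for H3K27ac and 1.93, 1.86 and 1.75 for H3K4me1. The Chrm3 region lies in an intron, 3680 bp upstream of the inner start, with 2.44, 1.62 and 1.86 for H3K27ac and 1.69, 1.85 and 1.68 for H3K4me1. H3K27ac replicate 1 was the highest list at both. The Ednra region lies in the downstream flank, 65553 bp from the start, within 4933431K23Rik, at 1.52 to 1.90. The Htr2a region lies in an intron 57470 bp into the gene, at 1.47 to 1.69.

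Oxtr (ENSMUSG00000049112.9, chr6:112473683-112489943, minus strand) encodes the receptor of oxytocin, the hormone of uterine contraction. Its gene body past the promoter was covered to 0% in each of the 8 lists. Its promoter window was covered to 0% in the 3 H3K27ac replicates, and to 20.5%, 8.99% and 0% in H3K4me1 replicates 1, 2 and 3. The peak of H3K4me1 replicate 1 beside the start had a fold enrichment of 2.10, the highest promoter peak at any member, and a −log10 p-value of 1.51. The pooled lists had a promoter peak for both marks, 1379 bp at 1.63-fold for H3K27ac and 2225 bp at 1.93-fold for H3K4me1. The single H3K27ac region of the window began 35153 bp upstream and measured 1948 bp. It was covered in H3K27ac replicates 1 and 3 (1.71- and 1.61-fold), in H3K4me1 replicates 2 and 3 (1.75- and 1.81-fold) and in both pooled lists (1.90- and 2.20-fold). H3K27ac replicate 2 had no peak anywhere in the Oxtr window.

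Adra1a (ENSMUSG00000045875.13, chr14:66635251-66771168, plus strand) and Adra1b (ENSMUSG00000050541.14, chr11:43774606-43901210, minus strand) encode receptors through which noradrenaline contracts smooth muscle. The window of Adra1a was covered to 1.47%, 1.05% and 0.798% by H3K27ac and to 2.75%, 3.32% and 2.24% by H3K4me1, without overlap (difference −1.66 percentage points, p = 0.1, exact permutation). None of its peaks in the 6 replicate lists reached a −log10 p-value of 1.3, so with that filter the coverage in those lists was 0% for both marks. Its promoter peaks, 1035 to 1299 bp over the start at 1.56- to 1.64-fold, were those of the IgG 2 lists. The window of Adra1b was covered to 3.40%, 2.53% and 2.77% by H3K27ac and to 5.34%, 2.40% and 2.67% by H3K4me1, and the marks overlapped (p = 0.9, exact permutation). Its count among promoters with H3K27ac in 2 replicates rests on peaks that share no base, 1 beginning 106 bp upstream of the start in replicate 1 and 1 lying 463 bp inside the gene in replicate 2, each 1.41-fold. No pooled list marked that promoter. In the 6 replicate lists Adra1b nevertheless had 12 peaks past 1.3 on the −log10 p-value scale, second to the 17 of Ednra, among them peaks at the promoter of the neighbour Ttc1. Beyond Adra1a, the promoter of Dpysl2, whose body reaches into the flank, had H3K27ac in 3 and H3K4me1 in 2 replicates.

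Chrm2 (ENSMUSG00000045613.9, chr6:36388084-36528414, plus strand) and Chrm3 (ENSMUSG00000046159.16, chr13:9875486-10360847, minus strand) encode the muscarinic receptors through which acetylcholine acts on visceral muscle. Coverage of the Chrm2 window was 3.71%, 0.731% and 0.909% for H3K27ac and 0.525%, 1.12% and 1.50% for H3K4me1 (p = 0.8, exact permutation), so H3K27ac replicate 1 alone stood above the rest. That list also had the most peaks of the series, 152889, and was the highest H3K27ac list in 7 of the 9 windows. No base of the Chrm2 window was covered by more than 1 H3K27ac replicate. Coverage of the Chrm3 window was 4.15%, 1.93% and 1.92% for H3K27ac and 2.54%, 2.84% and 3.29% for H3K4me1 (p = 0.8, exact permutation). Its promoter peaks fell at different starts, with H3K27ac replicate 3 at the inner start and H3K4me1 replicates 1 and 2 upstream of the outer one. All 11 H3K27ac regions of Chrm3 away from promoters were intronic, and 8 carried H3K4me1.

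Agtr1a (ENSMUSG00000049115.15, chr13:30336441-30382867, plus strand) encodes the type 1 receptor through which angiotensin II constricts vessels. Its window was covered to 5.33%, 1.61% and 0.748% by H3K27ac and to 4.81%, 2.74% and 0.816% by H3K4me1 (p = 0.9, exact permutation), a range within each mark wider than the difference between them, −0.227 percentage points. Its promoter peak in H3K27ac replicate 2 was narrow, 384 bp, at 1.98-fold with a −log10 p-value of 1.53, and those of H3K4me1 replicates 1 and 2 were 2152 and 1049 bp wide at 1.64- and 1.61-fold. Neither of its 2 H3K27ac regions away from promoters carried an H3K4me1 region.

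Summed over the 9 genes, the lists of the marks were separate in intragenic sequence and overlapped in promoters, flanks and whole windows. Intragenic sequence was covered to 4.20%, 4.04% and 2.88% by H3K27ac and to 5.92%, 5.68% and 4.95% by H3K4me1. The means differed by more than the SDs (3.71% ± 0.720 against 5.52% ± 0.504, exact permutation p = 0.1, the smallest possible). Counted in peaks per 100 kb the means were 5.15 and 5.28 and the difference was lost (p = 1.0, exact permutation). Without H3K27ac replicate 3 the difference in coverage was −1.40 percentage points (p = 0.2, exact permutation), and the remaining lists did not overlap. Over all genes the mean shares were 5.84% and 8.44%. Promoters were covered to 18.3% ± 3.30 by H3K27ac and 17.0% ± 2.54 by H3K4me1 (p = 0.6, exact permutation, n = 3 each), where the means over all genes were 27.8% and 14.2%. In the flanks the shares were 3.68% ± 2.18 and 4.14% ± 0.280 (p = 0.9, exact permutation), and in the whole windows 3.89% ± 1.22 and 5.06% ± 0.221 (p = 0.3, exact permutation). The promoter difference, 1.35 percentage points for H3K27ac minus H3K4me1, was −0.514 without H3K27ac replicate 3, and the flank difference, −0.461, was 0.0744 without H3K27ac replicate 2 and 0.257 without replicate 3. Lists of different marks shared more of the windows where they shared an IgG library. Of the bases under H3K27ac replicate 2, 46.7% and 50.5% were also under H3K4me1 replicates 1 and 2 of the same IgG library and 35.7% under replicate 3. Of those under H3K27ac replicate 3, 52.7% were also under H3K4me1 replicate 3 and 26.4% and 32.6% under replicates 1 and 2. In the other direction the shares were 31.5%, 36.2% and 30.8% for the pairs of lists with a common IgG library.

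For the pathway around these receptors, promoter counts stand beside 53.9% of all protein-coding genes with H3K27ac, 43.6% with H3K4me1 and 39.1% with both in at least 2 of 3 replicates, and differences between the lists were not tested. Of 33 genes for G proteins, phospholipase C, IP3 receptors, kinases and exchange factors further down the pathway and receptor shut-off, 28 had H3K27ac and 22 H3K4me1 at the promoter in at least 2 of 3 replicates, and 21 had both. In all 6 lists, where 24.3% of all genes had a promoter peak, were the G protein subunits Gna12 and Gnai2, the phospholipase Plcb3, the IP3 receptor Itpr2, the kinase Rock1, the exchange factor Arhgef1, the G protein regulators Rgs2 and Rgs3, the receptor kinases Grk5 and Grk6 and the arrestin Arrb1, and in none were Grk3 and Plcb2. Of 30 other receptors of contraction and relaxation, 8 had H3K27ac, 9 H3K4me1 and 6 both. Bdkrb2, the bradykinin B2 receptor, and Htr2b, the serotonin 2B receptor, were marked in all 6 lists, and 12 were in none (32.9% of all genes), namely Adra2c, Avpr2, Bdkrb1, Chrm1, Chrm4, Hrh2, Htr2c, P2rx1, Tacr1, Tacr2, Tacr3 and Vipr1. Of 20 ligands and ligand-handling enzymes, 6 had H3K27ac, 7 H3K4me1 and 4 both. The endothelin-converting enzyme Ece1, the monoamine oxidase Maoa and the cholinesterase Bche were in all 6 lists, and Ace, Agt, Chat, Dbh, Edn3, Th and Tph1 were among those in none. Among the genes for peptide ligands of members, Edn1 and Oxt each had an H3K4me1 promoter peak in 1 replicate and no H3K27ac peak in a replicate list, and Edn2 had H3K4me1 in 2 replicates and H3K27ac in 1. These 3 were named after their values were seen.

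The label of the cells was checked on marker promoters. Of 10 smooth muscle markers 5 had both marks in at least 2 of 3 replicates, beside the 39.1% of all genes, and Acta2, Des, Smtn and Synpo2 had them in all 6 lists. Myh11, the smooth muscle myosin heavy chain, had no H3K27ac promoter peak in a replicate list and H3K4me1 in 1, although both pooled lists had a peak. All 8 fibroblast markers had both marks, Col1a1, Col1a2, Col3a1, Dcn and Lum in all 6 lists. Both marks were present at 2 of 8 endothelial markers (Emcn, Tek) and 1 of 8 epithelial (Cldn3). The same held at 1 of 8 immune (Spi1) and 1 of 8 glia and melanocyte markers (Mitf, in all 6 lists). Ptprc had H3K27ac in 3 of 3 replicates and no H3K4me1. Vwf, Epcam, Pax8, C1qa, Cd3e, Cd79a, Csf1r, Itgam, Dct, Gfap, S100b, Sox10 and Tyr had a peak in none of the 6 lists. The pooled H3K27ac list had a peak at Pax8. Fewer cells of a type and less of a mark per cell cannot be told apart in these bulk libraries, and which cells gave the peaks at the receptor genes was not tested.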

How the data were processed

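ChIC-Seq of primary oviductal muscle cells gave 3 H3K27ac, 3 H3K4me1 and 3 IgG libraries, grouped by the antibody and number in their labels. Per the labels, reads were handled with cutadapt, Bowtie2 and MACS2 on GRCm38.p5. Per the file headers, the authors called broad paired-end peaks with MACS 2.2.7.1 (p 0.05, broad cutoff 0.1), 1 list per library and 1 pooled list per mark. The deposited pileup is a coverage signal scaled to IgG depth, the deposited fold enrichment is its ratio to local background, and p-values were deposited as −log10 values, each averaged over the peak. IgG libraries entered as controls and had no list of their own. The paper at hand describes other cells, so its methods were not used.

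Peaks were intersected with GENCODE mouse release 21 (54374 starts of 21866 protein-coding genes), and 0 peaks passed a chromosome end. Percent of bp covered was compared between marks by an exact two-sided permutation test (20 assignments, smallest p 0.1). Percentiles, counts and shares are descriptions. The members and gene lists were chosen with earlier results of these data known. All 9 members are named, and from other lists the genes with promoter peaks in all 6 or none of the 6 lists. Neighbours are named whose promoter or body holds a flanking peak seen in at least 2 replicates. Edn1, Edn2, Oxt, Myh11, Emcn, Tek, Cldn3, Spi1 and Ptprc were added after their values were seen. One further gene named by the rule is left out. Promoters of 7 members came from the RefSeq table (GRCm38.p6), other sequence from the RefSeq genome of that build. Alternatives varied the peak filters, flank, promoter width, overlap, consensus rule and replicates. Functions were tested on simulated data. Python 3.11.15, numpy 2.4.6, pandas 2.3.3 and matplotlib 3.10.9 were used.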

Additional observations from a re-analysis of the deposited data

How the results depend on the processing

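Of 146 values recomputed under alternatives, 122 kept their direction or, for counts, came within 1.5 times, 15 moved and 9 changed sign. The intragenic difference between the marks stayed negative in all 15 of its alternatives, but was −0.122 in peaks per 100 kb (p = 1.0, exact permutation), and its p was 0.2 without H3K27ac replicate 3 (exact permutation). That of the Ednra window stayed negative in all 12, and was smallest at −3.39 with peaks filtered at 1.3. The difference over windows stayed negative in 13 of 14 alternatives, and those over promoters and flanks had no stable sign. The promoter difference of 1.35 percentage points turned to −0.410 with peaks of at least 5 times the genome mean, −1.44 with promoters of 250 bp, −0.204 with 3 kb, and −2.51 in peaks per 100 kb. In peaks per 100 kb the window and flank differences were 0.0829 and 0.412. Leaving out 1 replicate gave −1.84 to −0.652 for windows, −0.514 to 2.77 for promoters (negative without H3K27ac replicate 3), −2.09 to −1.40 for intragenic sequence and −1.71 to 0.257 for flanks (0.0744 and 0.257 without H3K27ac replicates 2 and 3). With peaks filtered at a −log10 p-value of 1.3, 2 members kept H3K27ac and 0 kept H3K4me1 promoters, and 1 double-marked region was left. With 3 of 3 replicates required these were 2, 1 and 6. Leaving out 1 replicate gave 2 to 3 and 1 to 5 promoters and 13 to 33 regions, the lowest of these being without H3K27ac replicate 2 for H3K27ac promoters and regions and without H3K4me1 replicate 2 for H3K4me1 promoters, and 21 and 14 regions without H3K27ac replicates 1 and 3. H3K4me1 without replicate 1 left 2 promoters, as did requiring both IgG libraries. The number of member windows whose lists did not overlap between marks was 2, 2 to 3 with a replicate left out, and 4 with a flank of 100 kb. The share of all genes was counted only with flanks of 50 kb and all 6 lists (13.2% below, 18.4% above). The change in this number therefore has no background to be read against. Apart from the construction of each alternative, the cause was not tested. With the replicate number as a block (sign-flip test, smallest p 0.25) p was 0.25, 0.25, 0.25 and 0.75 for windows, promoters, intragenic sequence and flanks. Whether the numbers pair the lists is not settled. Deviations of same-numbered lists correlated at −0.0880, 0.319 and 0.468, and those of differently numbered lists at −0.496 to 0.354. The pairs at 0.319, 0.468 and 0.354 each shared an IgG library, and the other pairs did not. Within IgG 2 and IgG 3 the differences were −1.57 and −2.02 for windows, 1.59 and 2.25 for promoters, −1.76 and −2.07 for intragenic sequence, and −1.43 and −2.09 for flanks. The comparisons within and across IgG libraries and those of single members were chosen after seeing the data. How the control depth of 3110985 to 3713369 fragments bears on the calls was not tested.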
